A study of Mus musculus with 9 samples.

Results

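The genes described here are 10 established targets of the transcription factor p53 in lung dendritic cells of bleomycin-treated mice, followed through a period in culture. They were chosen by name (Cdkn1a, Mdm2, Trp53inp1, Ccng1, Sesn1, Phlda3, Eda2r, Zmat3, Gdf15 and Aen), with earlier results of these data known. Each matched 1 row of the 45535 rows that carry a gene symbol. All 10 passed the minimum for testing, a mean normalized count of 10. The samples were CD103-positive dendritic cells of C57/BL6j mice, taken by collagenase digestion and magnetic beads from lungs after 7 days of bleomycin. In 5 samples RNA was taken directly (before culture), and in 4 samples once they had spent 18 h in serum-containing RPMI medium with antibiotics (after culture). Both groups therefore carry the bleomycin exposure, and samples from unexposed mice were not analysed here, so the values compare cultured with uncultured cells and not bleomycin with its absence. Whether mice were pooled for a sample is not stated in the labels, so p-values measure only the spread between these samples, which may be technical. The extraction label speaks of lung RNA, while the cell type label names CD103+ DCs.

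p53, encoded by Trp53, is held low by the ubiquitin ligase MDM2 and accumulates after DNA damage and other stresses. It then binds response elements near its target genes and raises transcription of genes that stop the cell cycle, repair DNA, alter metabolism or trigger cell death. Bleomycin is a DNA-breaking drug used in mice to model lung injury and fibrosis. Mdm2 is itself a p53 target, which closes a negative feedback loop, and p21, the product of Cdkn1a, inhibits cyclin-dependent kinases and lets repressor complexes shut down cell cycle genes. Several of these targets, among them Cdkn1a and Gdf15, are also induced by routes that do not need p53.

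Rows with a symbol held 14.7 to 28.8 M reads per sample before and 26.0 to 35.3 M after culture, and each member had at least 29 reads in every sample. Defining markers of type 1 conventional dendritic cells were read in every sample, with Itgae, which encodes CD103, at 18138 ± 1537 in uncultured samples (SD, n = 5) and 1727 ± 335 in cultured ones (SD, n = 4). Of 10 such markers 7 were lower and 3 higher after culture (34.6% and 34.2% of all tested genes were). The whole comparison was broad, with 12524 of 18202 genes tested (68.8%) past an adjusted p of 0.05 in limma (a linear model fitted to log2 of the normalized count + 1, with Benjamini-Hochberg adjustment over all tested genes). In replicate 4 before culture, rows without a symbol held 6.43% of the reads, against 9.08 to 10.9% in the other 4 samples of its group. It was the lowest of the 5 for 5 of the 10 p53 targets and the highest for 2, while replicate 1 was the lowest for the other 5 and replicate 5 the highest for 4. Leaving replicate 4 out changed no direction and no call among the 10. The largest moves in log2 fold change were those of Gdf15 and Cdkn1a, given with these genes, and Phlda3 went from 0.33 to 0.28 (limma adjusted p = 0.0484).

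To show what a p53 binding sequence near these genes looks like, RefSeq promoters (GRCm38.p6, 250 bases before to 50 after each annotated start) were searched on both strands for the p53 response element. The element was taken as 20 bases made of a pair of adjacent p53 half-sites with no spacer, with the core C and G of each half-site fixed and at most 2 mismatches elsewhere. Promoters were found for 8 of the 10 genes, 12 promoters in all. Trp53inp1 and Zmat3 had none in the table. A match was found for Cdkn1a and Ccng1, each with 1 mismatch. In the same windows a match was found for 106 of 27025 genes, or 0.392%. Elements farther from a start or with a spacer were not searched, so a gene without a match may still hold an element. Both matches are printed 5′ to 3′ along the gene with 30 bases on either side, and the 20 bases in capitals are the matched element.
Cdkn1a: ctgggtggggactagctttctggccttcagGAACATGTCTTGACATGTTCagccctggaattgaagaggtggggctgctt
Ccng1: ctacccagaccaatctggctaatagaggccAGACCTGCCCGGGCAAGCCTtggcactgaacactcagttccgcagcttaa

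The Cdkn1a element lies at chr17:29090928-29090947 on the plus strand, just upstream of the first of the gene's annotated starts and 2841 bases before the other. The Ccng1 element lies at chr11:40755462-40755481, upstream of its start on the minus strand. A match describes letters in a window and does not show binding. The 2 genes that hold it went in opposite directions after culture, since Ccng1 was higher and Cdkn1a lower. Among 27 other p53 targets with a promoter in the table, 2 held a match (Gtse1 and Rps27l). The Rps27l match, at chr9:66946296-66946315, stands upstream of 1 annotated start and 210 bases after the gene's other start. It is printed beside the other 2. Rps27l rose after culture and Gtse1, whose match spans a start, fell (log2 fold change −0.48, limma adjusted p = 0.00527). Of the 4 matched genes 2 were higher and 2 lower (34.2% and 34.6% of all tested genes were). Whether a match goes with a direction was not tested.
Rps27l: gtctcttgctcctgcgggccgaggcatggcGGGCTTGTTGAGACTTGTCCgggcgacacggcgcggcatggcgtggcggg

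After culture 8 of the 10 p53 targets were higher (34.2% of all tested genes were) and 2 were lower (34.6% of all tested genes were). The 8 higher genes were Mdm2, Trp53inp1, Ccng1, Sesn1, Phlda3, Eda2r, Zmat3 and Aen, and the 2 lower genes were Cdkn1a and Gdf15. The median log2 fold change of the 10 was 0.73, beside 0.0065 over all tested genes. The groups did not overlap for 9 of the 10 genes, against 57.3% of all tested genes, and Phlda3 was the exception. As the genes were chosen with earlier results known, these shares are given as a description. The same 8 and 2 calls were made by edgeR's quasi-likelihood test and DESeq2's Wald test on the recovered whole reads. Because these are bulk samples, fewer cells of a type and less RNA per cell cannot be told apart.

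**Figure D1:**
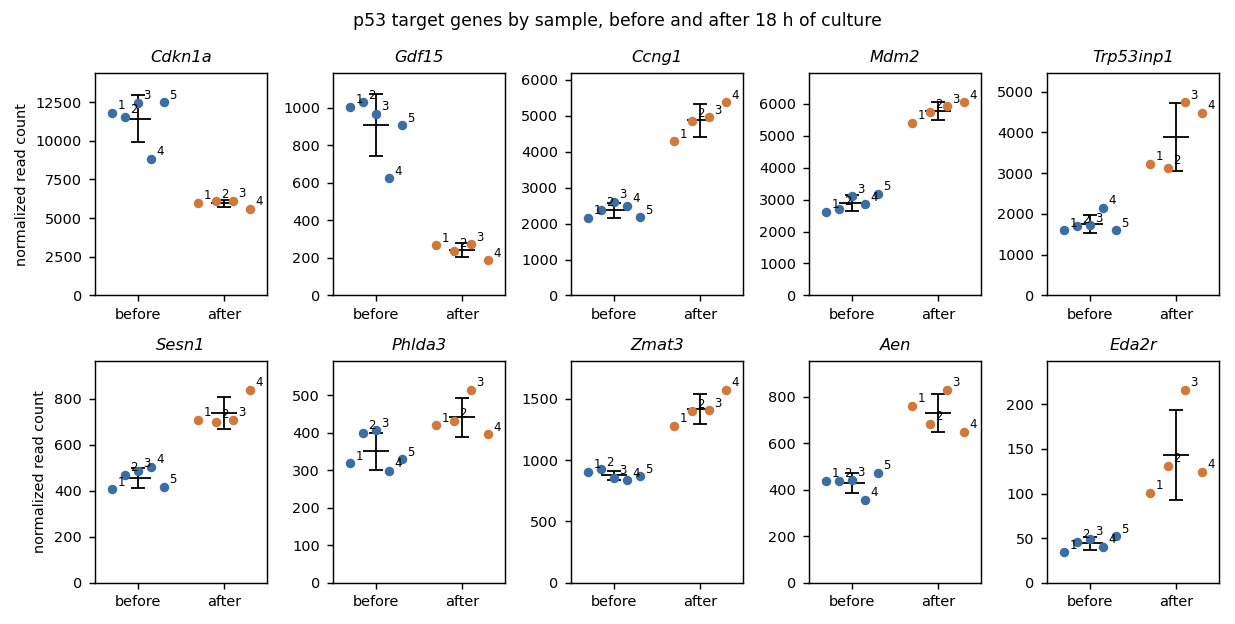
Normalized read count (vertical axes, each from 0) of the 10 p53 target genes in each sample before (blue) and after 18 h of culture (orange); numbers are replicates, the horizontal mark is the group mean and bars are the SD. Cdkn1a and Gdf15 fall, the groups overlap for Phlda3, and all after-culture samples lie above all before-culture samples for the other 7 genes.

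Cdkn1a, the gene of a cyclin-dependent kinase inhibitor, fell and Ccng1, the gene of a cyclin, rose. Cdkn1a (ENSMUSG00000023067.14, GRCm38 chr17:29090976-29100727) encodes p21. Its normalized counts before culture were 11807, 11557, 12463, 8830.3 and 12498 in replicates 1 to 5, and after culture 5988, 6083, 6116 and 5617 in replicates 1 to 4. All 4 cultured samples lay close together and below replicate 4 before culture, the lowest uncultured sample. The mean went from 11431 ± 1510.3 to 5951 ± 229 (SD), which is 1.92-fold lower (log2 fold change −0.93, SE 0.099, limma adjusted p = 1.90e-06). Without replicate 4 before culture the log2 fold change was −1.02. On the opposite strand the annotated gene AC167363.2 overlaps 273 bases, or 7.68%, of its exons, and 10.5% of the 50-base windows of its longest transcript also occur in other genes. The labels do not state strandedness, so reads of that overlap cannot be told apart.

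Ccng1 (ENSMUSG00000020326.7, chr11:40748552-40755311) encodes cyclin G1, which recruits a phosphatase that acts on MDM2. Its counts were 2165, 2387, 2603, 2497 and 2169 before culture and 4287, 4857, 4957 and 5377 after it. Every cultured sample stood well above every uncultured one. Its mean went from 2364 ± 195 to 4869 ± 449 (SD), or 2.06-fold higher (log2 fold change 1.04, SE 0.084, limma adjusted p = 1.28e-07).

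Mdm2 and Trp53inp1, whose products act on p53 itself, both rose. Mdm2 (ENSMUSG00000020184.15, chr10:117688875-117710758) encodes the ligase that marks p53 for degradation. Counts were 2622, 2709, 3099.8, 2855 and 3189.8 before culture and 5403, 5738, 5914 and 6045 after it. The cultured samples were all above the uncultured ones and spread little. The mean rose from 2895 ± 245 to 5775 ± 278 (SD), or 1.99-fold (log2 fold change 1.00, SE 0.076, limma adjusted p = 7.06e-08).

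Trp53inp1 (ENSMUSG00000028211.11, chr4:11156431-11174379) encodes a nuclear protein that promotes p53 phosphorylation and also takes part in autophagy. It was read at 1601, 1695, 1718, 2154 and 1602 before culture and at 3222, 3136, 4739 and 4472 after it. Replicate 4 was the highest before culture, and replicates 3 and 4 after culture stood well above replicates 1 and 2. The mean rose from 1754 ± 229.7 to 3892 ± 831 (SD), or 2.22-fold (log2 fold change 1.13, SE 0.132, limma adjusted p = 4.80e-06).

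The targets that signal between cells went in opposite directions. Gdf15 (ENSMUSG00000038508.7, chr8:70629393-70632456) encodes a secreted stress cytokine of the TGF-beta superfamily. Its counts before culture were 1005, 1029.6, 969, 624 and 908, and after culture 268, 239, 272 and 188. The uncultured replicate 4 was again the lowest of its group and still lay above every cultured sample. The mean fell from 907 ± 165 to 242 ± 38.8 (SD), which is 3.76-fold lower (log2 fold change −1.90, SE 0.154, limma adjusted p = 1.32e-07). Without replicate 4 before culture the log2 fold change was −2.03.

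Eda2r (ENSMUSG00000034457.10, chrX:97333840-97377216) encodes a receptor of the TNF receptor superfamily for an ectodysplasin isoform. It had the lowest counts of the 10, with 34.3, 45.8, 49.4, 40.2 and 51.9 before culture and 101, 131, 217 and 125 after it. Replicate 3 after culture was well above the other cultured samples, and the groups did not overlap. The mean went from 44.3 ± 7.13 to 143 ± 50.6 (SD), a rise of 3.23-fold and the largest among the 10 (log2 fold change 1.63, SE 0.223, limma adjusted p = 2.15e-05). At these low counts the log2 value, which carries a pseudocount of 1, understates the change.

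Sesn1 and Phlda3 encode proteins that restrain growth signalling, sestrin 1 through the nutrient-sensing kinase complex mTORC1 and PHLDA3 by competing with AKT for membrane lipids. Sesn1 (ENSMUSG00000038332.13, chr10:41809935-41908424) was read at 407, 470.2, 488, 504 and 417 before culture and at 708, 699, 708 and 841 after it. Replicate 4 after culture stood above 3 nearly equal cultured samples, and the mean was 1.62-fold higher (log2 fold change 0.69, SE 0.096, limma adjusted p = 2.54e-05). Phlda3 (ENSMUSG00000041801.5, chr1:135766119-135769136) was read at 318, 399.7, 406, 298 and 329 before culture and at 419.6, 431, 515 and 396 after it. Its cultured replicate 4 lay below the uncultured replicates 2 and 3, and its rise of 1.26-fold was the smallest of the 8 (log2 fold change 0.33, SE 0.120, limma adjusted p = 0.0243). Phlda3 was no longer past the threshold without replicate 1 before culture (adjusted p = 0.0579) or replicate 3 after culture (0.0795), and the adjusted p was between 0.0140 and 0.0795 whichever of the 9 samples was left out.

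Zmat3 and Aen encode proteins that act on nucleic acids, an RNA-binding zinc finger protein that regulates splicing and an exonuclease linked to apoptosis. Zmat3 (ENSMUSG00000027663.12, chr3:32334792-32366014) was read at 904, 926, 856, 834 and 869.9 before culture and at 1281, 1399.6, 1408 and 1577 after it. It had the tightest uncultured group of the 10, with a coefficient of variation of 4.17%, and rose 1.61-fold (log2 fold change 0.69, SE 0.077, limma adjusted p = 3.30e-06). Aen (ENSMUSG00000030609.18, chr7:78895854-78911209) was read at 438, 438, 443, 357 and 473 before culture and at 759.6, 685, 831 and 648 after it. Its uncultured replicate 4 was the lowest of all samples, the groups did not overlap, and the mean rose 1.70-fold (log2 fold change 0.76, SE 0.104, limma adjusted p = 2.15e-05).

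Levels were compared between the genes per kb of merged annotated exon (GENCODE M21). This length joins the exons of all annotated transcripts of a gene and can exceed that of any 1 transcript. Merged exons of Cdkn1a, Ccng1 and Mdm2 span 3.553, 3.512 and 5.083 kb, and their longest transcripts 2080, 3512 and 3145 bases. The order of the genes was read with merged exons only and can differ with another length. Taken by longest transcript, Mdm2 would stand above Ccng1 in both groups, since its mean count is higher and that transcript shorter. Cdkn1a had the highest level of the 10 in both groups, at 3217 ± 425 before and 1675 ± 64.5 after culture (SD, normalized count per kb). Before culture the next gene, Ccng1, stood at 673 ± 55.6, so Cdkn1a was far above the rest. After culture Ccng1 stood at 1387 ± 128 and Mdm2 at 1136 ± 54.7, and the sample ranges of these 3 genes did not overlap. Gdf15 went from the fourth place in the order to the seventh (489.9 ± 88.9 to 130.4 ± 20.9), where its range overlapped that of Aen, and Aen overlapped Zmat3. Before culture the neighbours that overlapped were Ccng1 and Mdm2, Mdm2 and Gdf15, Trp53inp1 and Phlda3, and Zmat3 and Aen. Eda2r was the lowest in both groups (7.52 ± 1.21 and 24.3 ± 8.59).

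**Figure D2:**
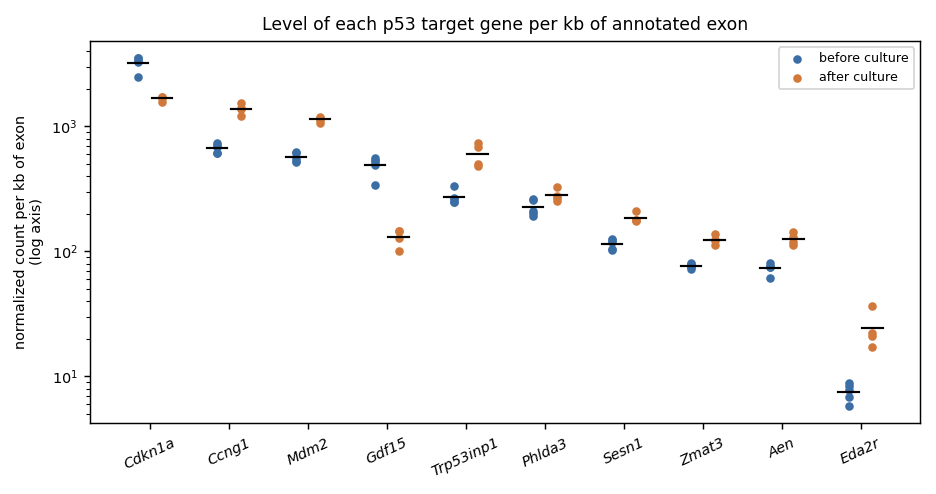
Normalized count per kb of annotated exon (vertical log axis) of the 10 genes, ordered by their level before culture; dots are samples before (blue) and after culture (orange) and bars are group means. Cdkn1a is the highest in both groups, while its lead over Ccng1 and Mdm2 shrinks after culture because it goes from 3217 to 1675 per kb and they rise to 1387 and 1136.

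The direction and the call of 9 of the 10 genes held in all 22 other settings and Phlda3 kept its direction in all of them. A correction of each sample for its smooth trend over GC content and transcript length (the GC and length correction), added after the data were seen, moved 3 of the log2 fold changes by more than 1.5 times. Phlda3 went from 0.33 to 0.95, Ccng1 from 1.04 to 0.56 and Trp53inp1 from 1.13 to 0.64. Cdkn1a was −0.65 and Gdf15 −1.33 under this correction. With both samples of library number 4 left out (replicate 4 before and replicate 3 after culture), also added after the data were seen, 9 of 10 genes passed, and the adjusted p of Phlda3 was 0.126.

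**Figure D3:**
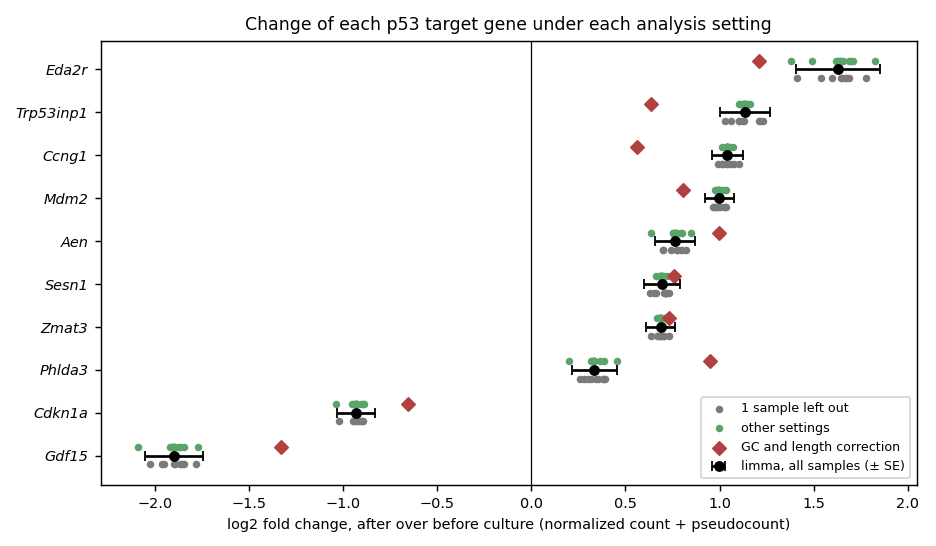
Log2 fold change after over before culture (horizontal axis) of each p53 target gene: black dots with bars are limma with all samples ± SE, grey dots leave out 1 sample, green dots are other settings and red diamonds the GC and length correction. No dot crosses 0, and the correction lowers Ccng1 to 0.56 and raises Phlda3 to 0.95.

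A list of 36 other p53 targets split evenly. Of 35 tested, 14 were higher and 14 lower (34.2% and 34.6% of all tested genes were) and 7 did not pass. The median log2 fold change was −0.22. After the GC and length correction 12 were higher and 13 lower, and the median was 0.03. Rprm was under the minimum for testing. In the apoptosis group 4 genes rose and 5 fell of 10. Apaf1, the apoptosome scaffold, rose from 3401 ± 170.0 to 7132 ± 259 (log2 fold change 1.07), Ei24 rose 1.57-fold, and Bax, the pore-forming BCL2 family member, rose 1.51-fold (1244 ± 166 to 1883 ± 205), with a log2 fold change of 0.60 that was 1.23 after the GC and length correction. The death receptor gene Fas rose 1.49-fold, although it did not pass after the GC and length correction (0.18, adjusted p = 0.0896). Perp, a desmosomal apoptosis effector, fell 2.23-fold (239 ± 36.0 to 107 ± 40.9), and Siva1 was 1.41-fold lower, a call lost under quantile normalization (adjusted p = 0.0829). The BH3-only genes Bbc3 (PUMA, 631 ± 118 to 426 ± 39.9) and Pmaip1 (NOXA, 3679 ± 224 to 3037 ± 559) were lower with overlapping groups. Bbc3 was 0.22 after the GC and length correction, and Pmaip1 did not pass without replicate 5 before culture (adjusted p = 0.0566), replicate 1 (0.0882) or replicate 2 after culture (0.0920), or with upper quartile scaling (0.0770), while the GC and length correction moved it from −0.29 to −0.72 (adjusted p = 1.79e-05).

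In the arrest and stress group 6 of 8 tested genes fell, 1 rose and 1 did not pass (34.6% of all tested genes fell and 34.2% rose). Btg2, an antiproliferative gene that also responds early to many stimuli, fell 9.53-fold, from 28105 ± 875 to 2948 ± 80.1 (log2 fold change −3.25, SE 0.06, limma adjusted p = 5.92e-13). Plk3, a stress kinase, fell 7.66-fold, and Gadd45a, a growth arrest and DNA damage gene, 2.84-fold. Sesn2, the paralogue of Sesn1, fell 2.68-fold (2504 ± 214 to 933 ± 20.2). Sfn was the gene that rose (436 ± 38.0 to 532 ± 38.9), and it did not pass without replicate 4 after culture (adjusted p = 0.0549). The GC and length correction moved Sfn from a log2 fold change of 0.29 to 0.79 and Sesn2 from −1.42 to −0.89.

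Of 5 DNA repair targets 3 rose and 2 did not pass (34.2% of all tested genes rose). Rrm2b, a subunit of the p53-induced ribonucleotide reductase, rose from 405 ± 38.0 to 695 ± 51.8, Xpc, a damage sensor of nucleotide excision repair, rose 1.41-fold, and Polk, a translesion polymerase, rose 1.35-fold. Polk did not pass after the GC and length correction (log2 fold change 0.03), which also moved Rrm2b from 0.78 to 0.28 and Xpc from 0.48 to 0.74. Among 12 metabolic and other targets 6 rose and 3 fell (34.2% and 34.6% of all tested genes did). Gls2, a glutaminase, rose 3.45-fold (87.9 ± 9.39 to 304 ± 67.5), Rps27l 2.25-fold and Dram1, a lysosomal autophagy gene, 1.96-fold. Fdxr, the mitochondrial ferredoxin reductase, fell 2.91-fold, Ephx1 1.76-fold and Dcxr 1.69-fold. The GC and length correction moved the log2 fold change of Rps27l from 1.17 to 0.65, of Fdxr from −1.53 to −0.99 and of Dcxr from −0.76 to −0.30. Trp53cor1, a noncoding RNA gene next to Cdkn1a and named here because of that position, rose from 58.2 ± 3.32 to 114 ± 34.99 where Cdkn1a fell, and 46.1% of its transcript windows occur in other genes.

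Trp53 itself was read at 2571 ± 144 before and 2286 ± 178 after culture and did not pass (log2 fold change −0.17, SE 0.07, limma adjusted p = 0.0553). Over the 22 other settings its adjusted p ran from 0.0235 to 0.204, with 8 of them past the threshold on the lower side and a value of 0.09 on the higher side after the GC and length correction. Of 12 tested p53 family members and regulators, 5 were higher, 3 lower and 4 did not pass (6 higher and 2 lower after that correction). Over all tested genes 34.2% were higher and 34.6% lower. Mdm4, the paralogue of Mdm2 that blocks p53 activation, rose from 2811 ± 186 to 4057 ± 731. The deacetylase gene Sirt1 rose 2.15-fold, and the ubiquitin ligase genes Cop1 and Rchy1, whose products target p53, rose 1.62-fold and 1.59-fold. Cop1 did not pass after the correction (0.14), which moved Mdm4 from 0.51 to 0.29. Usp7, the deubiquitinase of MDM2 and p53, fell 1.21-fold (log2 fold change −0.27, and −0.46 after the correction). Hipk2, a p53 kinase gene, was 1.18-fold lower (adjusted p = 0.0440), a call that was lost in 7 of the 9 fits that left out 1 sample (adjusted p up to 0.125) and turned to 0.17 after the correction. The phosphatase gene Ppm1d, a p53 target that ends the response, had 675 ± 38.7 and 616 ± 47.4 (adjusted p = 0.171).

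In DNA damage signalling 8 of 15 genes rose, 5 fell and 2 did not pass (34.2% of all tested genes rose and 34.6% fell). After the GC and length correction 5 rose and 4 fell of 14 tested, and the median log2 fold change went from 0.30 to 0.08. Atr, the kinase of replication stress, rose 1.95-fold (760.3 ± 102 to 1484 ± 179.9), Rad50, of the complex that holds broken ends, 1.52-fold, and the mediator gene Mdc1 1.47-fold. Atm, the kinase that responds to double-strand breaks, was 1.23-fold higher (1225 ± 103 to 1509 ± 67.9), but its log2 fold change was 0.07 after the GC and length correction, which moved Atr from 0.97 to 0.62. Chek2, the checkpoint kinase downstream of ATM, had 173 ± 25.8 and 196 ± 7.22 and did not pass with all samples (log2 fold change 0.19, adjusted p = 0.214), but passed under quantile normalization (0.39, 0.0222) and was −0.0091 after the GC and length correction and 0.096 without replicate 4 before culture. H2ax, the histone variant phosphorylated at breaks, fell 6.40-fold, Brca1 1.86-fold and Rnf8 1.44-fold (log2 fold change −0.54, and −0.34 under quantile normalization). The GC and length correction did not cover H2ax, whose longest transcript holds 62.3% GC.

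Of 16 partners and relatives of p21, 10 were lower, 2 higher and 4 did not pass (34.6% of all tested genes were lower and 34.2% higher). Ccnd1, encoding cyclin D1, fell 9.18-fold (4106 ± 285 to 447 ± 4.21), and the inhibitor genes Cdkn2c and Cdkn2d fell 5.18-fold and 4.08-fold. Cdkn2b, which encodes the inhibitor p15, rose 10.5-fold (37.8 ± 9.99 to 396 ± 81.8), and the retinoblastoma gene Rb1 rose 1.55-fold (log2 fold change 0.63, and 0.23 after the GC and length correction). Cdkn1b, which encodes p27, had 3902 ± 212 and 3589.9 ± 663 and did not pass with all samples (log2 fold change −0.14, adjusted p = 0.272). It passed on the lower side after the GC and length correction (−0.45, adjusted p = 0.00244), without replicate 3 after culture (−0.24, 0.0315) and with both samples of library number 4 left out (−0.24, 0.0283), and was −0.022 without replicate 2 after culture. All 14 cell cycle genes that p21 is known to repress were lower after culture (34.6% of all tested genes were). Their log2 fold changes ran from −3.55 to −2.02, and Birc5 (348 ± 49.5 to 29.95 ± 10.6), Ccnb2 (711 ± 47.9 to 82.4 ± 9.75) and Cenpf (618 ± 34.7 to 85.7 ± 30.7) fell most. Cdkn1a was lower as well, and whether p21 had a part in these falls was not tested.

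Paralogues of the 10 genes moved in both directions. Of 10 tested, 3 rose and 4 fell (34.2% and 34.6% of all tested genes did), and 3 did not pass. Ccng2 rose 1.95-fold beside Ccng1, Sesn3 rose 1.77-fold beside Sesn1, and Mdm4 rose beside Mdm2. The GC and length correction moved Ccng2 from 0.95 to 0.62. In contrast Sesn2 fell where Sesn1 rose, and Phlda1 fell 5.59-fold (2444 ± 376 to 437 ± 91.8) where Phlda3 rose. Isg20, an exonuclease related to Aen, fell 3.25-fold. No test of the difference between paralogues was made. The values of some genes named from these lists are uncertain because windows of their transcripts also occur in other genes, at 33.2% for Phlda1, 31.3% for Rnf8, 27.2% for Ccnd1 and 22.2% for Rchy1. A list of 13 genes held Atf4 and targets of its product, the stress factor ATF4, which can also induce Gdf15 and Sesn2. Of these 13 genes 9 were lower, Atf4 itself among them (7857 ± 477 to 3487 ± 139.7), and 2 were higher. Beside these counts, 34.6% of all tested genes were lower and 34.2% higher. Atf3, Chac1 and Nupr1 fell 4.59-fold, 3.98-fold and 3.48-fold, and Slc7a11 and Asns rose 6.04-fold and 3.50-fold.

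**Figure D4:**
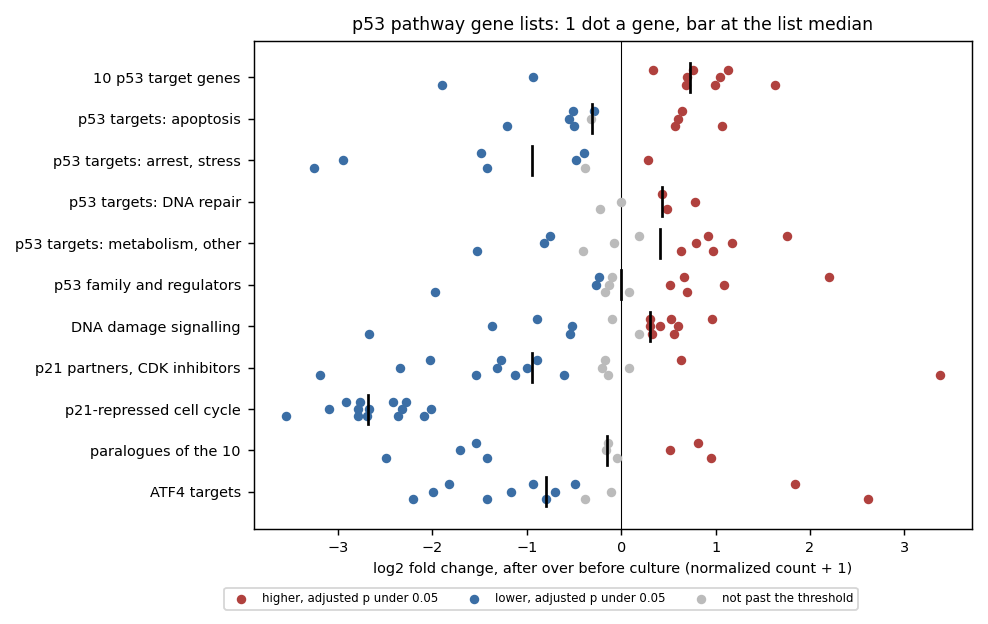
Log2 fold change after over before culture (horizontal axis) of every tested gene of each list, 1 dot a gene, with red for higher, blue for lower and grey for not past an adjusted p of 0.05; the black bar is the list median. The 10 p53 targets sit at a median of 0.73 with Cdkn1a and Gdf15 on the left, other p53 targets fall on both sides, and all 14 p21-repressed genes lie left of 0.

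Markers of other lung cell types changed between the same groups. Over all tested genes 34.6% were lower and 34.2% higher. All 6 of 6 markers fell after culture for neutrophils (summed normalized count 13594 to 23668 before and 916 to 1859.8 after), endothelial cells (21920.2 to 31725 and 3189 to 4150.1), fibroblasts (15610.5 to 28377 and 2206 to 4422) and alveolar epithelium (23383 to 37482 and 4169 to 7476). Of 7 macrophage and monocyte markers 2 were higher, 1 was lower and the summed ranges overlapped (30904 to 43209 and 29969.5 to 55069). Of 7 T and NK cell markers 1 was higher and 4 lower, and of 4 B cell markers 1 was higher and 1 lower. No marker was at 0 in a whole group. The part of these cells in the values of the 10 p53 targets was not tested.

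Over the 9 samples, the log2 profiles nearest to that of Cdkn1a among 11785 genes with a mean of at least 100 were those of Rpl13a and Srsf2, with a root mean square difference of 0.050 and 0.052. The profiles nearest to Mdm2 were Cebpg (0.049) and Mxi1 (0.057). Among the p53 targets with such a mean Ccng1 was the nearest to Mdm2 (0.111), while Cdkn1a and its nearest p53 target, Gdf15, were 0.502 apart. These distances rest on a single contrast between 2 groups and are given as a description.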

How the data were processed

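The 10 genes and all gene lists were chosen with earlier results of these data known. Total RNA was sequenced in 5 samples before and 4 after culture, grouped by their titles. The deposited table holds a normalized signal for each gene and sample. Within a column the values go in equal steps of 1 read, so that 100% of them came out as whole reads within 0.001 reads, and edgeR's test on these reads called 12562 genes. The submitters' processing notes name DESeq2 and GRCm38 with no role, and the aligner, counter, annotation, strandedness and filters are not given in the sources used here. Rows without a symbol (3782) were left out. They held 6.43 to 10.9% of reads before and 3.87 to 5.46% after culture.

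Genes with a mean of at least 10 (18202) were tested with limma 3.58.1 in R 4.3.3 on log2(value + 1), with group as the only term and a mean-variance trend, two-sided, with Benjamini-Hochberg adjustment over all tested genes. A fold is the ratio of group means of normalized counts. Alternatives were pseudocounts of 0.5 and 8, other filters, TMM, upper quartile and quantile scaling, edgeR 4.0.16 and DESeq2 1.42.0 on recovered reads, replicate blocks, and leaving out each sample. A GC and length correction (96.4% of tested genes have a value) and leaving out both samples of library number 4 were added after the data were seen. Scripts were tested on simulated counts.

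Named genes are the 10, up to 3 rises and 3 falls per list with a mean of at least 100 and the largest change, and 12 genes fixed by name. Not all are printed. Cdkn1b, Cdkn1c, Ddit4 and Mdm4 stand on 2 lists and Sesn2 on 3. Atf4, Cdkn2a and Trp53cor1 were named after their values were seen. Exon lengths, positions and shared 50-base windows came from GENCODE M21 (GRCm38), which may not be the authors' annotation. A wider search for response elements was planned, and the RefSeq promoters were searched instead. H2ax was matched through its older symbol.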

Additional observations from a re-analysis of the deposited data

Results flagged for a closer look

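In 3 of the 20 groups of values (10 genes, each before and after culture), 1 sample lay farther from its neighbour than Dixon's 95% limit allows, where chance flags about 1 in 20. Replicate 4 before culture was low for Cdkn1a (8830.3 against 11557 to 12498 in the other 4, a gap of 0.743 of the range) and high for Trp53inp1 (2154 against 1601 to 1718, 0.788). Replicate 4 after culture was high for Sesn1 (841 against 699 to 708, 0.934). Without the first of these samples the log2 fold change was −1.02 for Cdkn1a and 1.21 for Trp53inp1, and without the second it was 0.63 for Sesn1.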

How the results depend on the processing

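Over 22 alternatives, each list count stayed within 1.5 times its value with all samples. Of 70 named genes, 57 kept their direction and their call in each alternative that held them. H2ax had no value under the GC and length correction. The 10 p53 targets gave 9 to 10 calls when 1 sample was left out, and Phlda3 was the call lost. The correction for GC content and length turned the direction of Trp53 (0.0861), Bbc3 (0.22), Hipk2 (0.17) and Chek2 (−0.0091), none of them past the threshold then, and the cause was not tested. The count of all genes called ran from 11766 to 12691 when 1 sample was left out and from 9925 (minimum mean of 50, fewer genes tested) to 14150 (no filter, more genes tested) in the other settings. A replicate block by title number or by library number gave the same 8 higher and 2 lower p53 targets, 10 calls in all, with 11646 and 12836 genes called overall. Same-numbered samples did not deviate together by title number (correlations of 0.081, 0.080, −0.21 and −0.040). By library number they did so unevenly (0.081, 0.25, 0.35 and 0.045). Every sample after culture was closest to the uncultured sample of its own library number. Replicate 5 before culture was closer to replicate 1 after culture (0.066) than to the sample of its own library number. The labels do not state pairs, so the main fit took none, and whether library numbers mark pairs is not known. The title block lost Pmaip1 (adjusted p = 0.0542) and Hipk2 (0.105). Depth limits Eda2r most, with 29 reads in its lowest sample.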

Other observations

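GC content of the longest transcript ran from 38.8% to 62.6% among the 10 genes. The correction for GC content and length, which takes both at once so that their shares cannot be told apart, moved their values unequally. Trp53inp1 (38.8% GC), Ccng1 (40.8%) and Eda2r (40.9%) went from log2 fold changes of 1.13, 1.04 and 1.63 to 0.64, 0.56 and 1.21. Phlda3 (62.6%) and Gdf15 (61.3%) went the other way, from 0.33 to 0.95 and from −1.90 to −1.33. Sesn1 (49.8%) and Zmat3 (47.6%) moved from 0.69 to 0.76 and from 0.69 to 0.73. All 10 kept their direction and their call under the correction. Cdkn2a, which encodes the MDM2 inhibitor ARF beside p16, was low in both groups and rose from 8.85 ± 3.98 to 39.9 ± 8.95 (SD, log2 fold change 2.20, SE 0.43, limma adjusted p = 4.82e-04), and the table does not separate its 2 products.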
